A study of Bos taurus with 18 samples.

Results

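The region described is a window of 1000000 bases on cattle chromosome 21, chr21:66900000-67900000, chosen by position because it is taken to hold the imprinted genes DLK1 and MEG3. It holds 517 of the 27449 single-nucleotide polymorphism (SNP) sites listed for chromosome 21, and 992284 sites are listed in all. Coordinates are those of the deposited tables, whose headers name no genome build but whose chromosomes bear the accessions used by NCBI for the UMD assembly. The sites were called from RNA, so every genotype here is that of the transcripts read in a library, not of the animal's DNA. Pituitary and hypothalamus were taken from each of 9 Angus cows, and poly(A) RNA gave 18 libraries, 3 for each tissue and age. The 6-month animals were calves just after weaning, the 18-month animals had reached sexual maturity, and the 30-month animals had borne a first calf. None was in heat when killed.

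Imprinted genes are read from only 1 of the parental chromosomes. In the DLK1 and MEG3 domain of mammals, the protein-coding genes DLK1, a membrane protein related to Notch ligands, and RTL1, a gene derived from a retrotransposon, are expressed from the paternal chromosome. The noncoding RNAs of the domain, MEG3, the antisense transcript of RTL1, MEG8 and MEG9, are expressed from the maternal chromosome. In sheep, a mutation in the domain causes the callipyge muscle phenotype, and DLK1 and MEG3 are both known in the pituitary. Where a transcript comes from 1 parental copy, an animal that carries 2 alleles is read as having 1 of them.

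The deposited tables give no gene symbols for these sites, so whether the label of the window holds was not checked. The order of genes is given for orientation only. In the RefSeq table used here, of the newer ARS-UCD2.0 assembly, the neighbours run WARS1, WDR25, BEGAIN, DLK1, MEG3, RTL1, PEG11AS (the RTL1 antisense RNA), MEG8, MEG9, DIO3OS and DIO3. None of the identifiers of the gene table matched that table (0 of 27376), and no transcript in the window is given a symbol here. Of the 517 sites, 312 lay outside any gene model, which is 60.3%, against 29.9% of the sites in the rest of chromosome 21. The other 205 sites lay in or beside 4 gene models. They were gene25007 (31 sites, chr21:66900044-66912399), gene25008 (49 sites, chr21:66916247-67065817), gene25010 (116 sites, chr21:67071973-67103971) and gene25016 (9 sites, chr21:67426162-67431159); these spans run from the first to the last site of each model. Sites outside gene models fell into 7 stretches separated by over 20000 bases or by a gene model. Only 2 of them were read deeply. The first intergenic stretch, chr21:67375062-67413039, held 44 sites with depths up to 506 reads. The second intergenic stretch, chr21:67441479-67612721, held 178 sites with depths up to 73 reads. These stretches lie on either side of gene25016, and they were delimited after the values had been seen.

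The alleles that each animal showed along these stretches carry the main pattern, and they are printed here at the sites where all 9 animals were called from at least 20 reads, both alleles were seen and no animal was heterozygous. Each letter is 1 SNP site, in order of position, so the strings are alleles at spaced sites and not contiguous sequence. Lower case marks the reference allele and capitals the alternative allele. By this choice 1 string describes an animal, and it left out 2 sites of the first stretch that had a heterozygous animal and none of the second. In the first stretch, 23 sites from chr21:67377792-67407758 gave 6 distinct strings.
6-month animal 1 and 18-month animal 3: tacAcGtcacTcacTGCCgtcCt
6-month animal 2: tacAcGtcaTTTGccagCgtTCC
6-month animal 3 and 18-month animal 1: GacgTGCcacTcacTGCCgtcCt
18-month animal 2: tGcgctCTCccTGTcagtgCcaC
30-month animal 1 and 30-month animal 3: tacgTGCcacTcacTGCCgtcCt
30-month animal 2: taTgctCTCccTGTcagtACcaC

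Distinct strings of the first stretch differed from each other at 1 to 18 of the 23 sites. In the second stretch, 16 sites from chr21:67513732-67525069 gave 3 distinct strings, which differed at 1 to 16 sites.
6-month animals 1 and 3, 18-month animals 1 and 3, 30-month animal 2: gcatactccaAAatat
18-month animal 2, 30-month animal 1, 30-month animal 3: AAGCGACGTGggaGGC
6-month animal 2: AAGCGACGTGggGGGC

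In the second stretch 5 animals thus shared 1 string, and the other 4 showed the other allele at all or all but 1 of the 16 sites. The 3 pairs of animals that shared a string in the first stretch also shared one in the second, whereas 6-month animal 2 matched no other animal in either. Each age held animals with different strings. Neighbouring sites travel together on a chromosome, so the sites of a stretch are not independent observations.

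**Figure D1:**
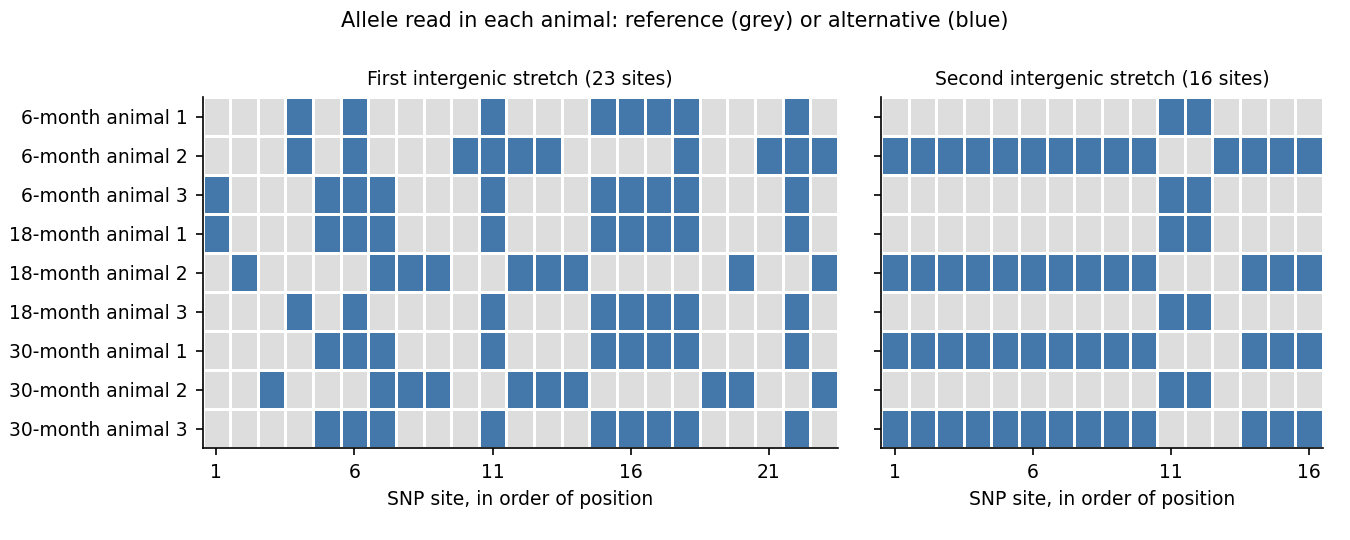
Allele read in each of 9 animals (rows) at the 23 sites of the first and the 16 sites of the second intergenic stretch (columns, in order of position, not to scale); grey is the reference and blue the alternative allele. Sites with a heterozygous animal are not drawn; the second stretch falls into 2 patterns, in 5 and 4 animals, that nearly mirror each other.

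The libraries that entered this comparison were first matched to animals. Over sites outside chromosome 21, the pituitary and hypothalamus libraries of the same age and replicate number had 99.4% to 99.7% identical genotypes, and no library matched another animal at over 66.2%. They were therefore treated as the pair of 1 animal, and the animal was the replicate (n = 9). The total count per library ranged from 28724861 to 38036840 in the gene table. The library of 18-month pituitary replicate 3 was shallow at SNP sites. Its depth summed over called sites was 2372 in the first stretch, against 3825 to 5772 elsewhere. In the second stretch it was 228 against 703 to 1570. The rest of chromosome 21 was also lowest in this library, at 91791 against 131381 to 196035. Scaled to a summed depth of 1000000 per library, its first stretch lay just below the others, at 717 against 764 to 1039. Its second stretch lay further below, at 68.9 against 132 to 238. The 6-month animal 2 was the most heterozygous in the rest of chromosome 21. All results on the share of heterozygous calls kept their sign when either animal was left out.

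Heterozygous calls were scarce in the window in all animals. Among calls read at least 20 times, the share of heterozygous calls per animal was lowest at 4.50%, had a median of 6.48% and reached 16.4%. In the rest of chromosome 21, weighted to the same depths, the lowest was 25.8%, the median 33.2% and the highest 52.4%. The ranges did not overlap. The mean was 8.14% ± 3.81 (SD, n = 9 animals) in the window and 35.1% ± 7.81 in the rest. The difference was -27.0 percentage points ± 4.87, lower in 9 of 9 animals, with p = 0.00391 in a two-sided exact sign-flip permutation test, the smallest p that 9 animals allow. The share was 4.50%, 16.4% and 6.48% in the 6-month animals, 7.83%, 9.55% and 11.4% in the 18-month animals, and 6.15%, 5.97% and 4.94% in the 30-month animals. The 18-month animals all lay above the 30-month animals, a difference that 3 against 3 animals cannot take below p = 0.1 in an exact test and that was not tested.

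**Figure D2:**
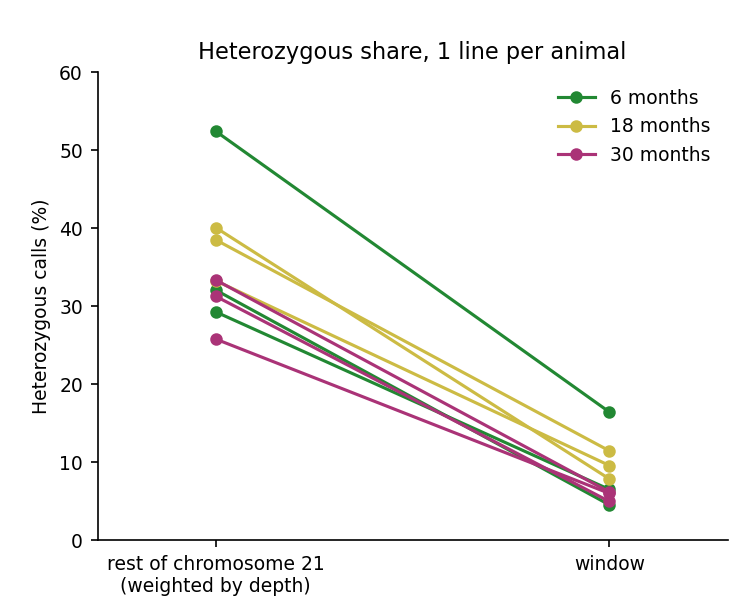
Share of heterozygous calls among calls read at least 20 times (%), in the rest of chromosome 21 weighted to the depth of the window (left) and in the window (right); each line is 1 animal, coloured by age. All 9 lines fall, from between 25.8% and 52.4% to between 4.50% and 16.4%.

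The depth field bears on how these shares can be read. At calls homozygous for the reference, 62.0% of neighbouring sites less than 500 bases apart shared exactly the same depth, against 6.04% at heterozygous and 8.06% at homozygous alternative calls. Alternative reads were listed at only 1632 of 3826256 homozygous reference calls. The depth of a reference call may thus not be that of its own site, and a low share of alternative reads at such a call is not visible. Non-reference calls do not have this limit. Among these alone, a restriction chosen after the data were seen, the mean share of heterozygous calls was 22.2% in the window and 67.1% in the rest, a difference of -44.9 points in the same direction.

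Sites without any heterozygous animal lay in the intergenic stretches. Among 70 sites of the window at which both alleles were seen over at least 5 animals, 50 had no heterozygous animal, which is 71.4%. In the rest of chromosome 21, 1.77% of such sites (39 of 2200) had none, and on the other autosomes 0.584% (458 of 78458) had none. All 50 lay outside gene models, where they made up 96.2% of 52 sites. The allele frequencies of those 52 sites lead to 195 expected heterozygous genotypes over the animals (2pq for each site, with a correction for few animals), and 12 were observed, a ratio of 0.0614. The 18 sites in gene models gave 37 heterozygous genotypes against 33.7 expected, a ratio of 1.10, and none of them lacked a heterozygous animal. Intergenic sites elsewhere on chromosome 21 gave 1024 against 1027 expected. The first stretch had 12 against 86.9 expected and the second had 0 against 108 expected, both described without a test because the stretches were delimited after their values were seen.

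Per animal, observed over expected heterozygous genotypes in the window ranged from 0.115 to 0.427, with a median of 0.187. The rest of chromosome 21 ranged from 0.841 to 1.68, with a median of 1.05. The means were 0.215 ± 0.0962 and 1.12 ± 0.245 (SD, n = 9 animals), and the difference of -0.902 ± 0.167 was negative in 9 of 9 animals (two-sided exact sign-flip permutation test, p = 0.00391). With sites in exons only, which leaves out the intergenic stretches, the difference was -0.271, negative in 8 of 9 animals, and p = 0.082 in the same exact test. The mean ratio at exon sites was 1.09 in the window and 1.36 in the rest. Exon sites of the window thus showed no deficit against the expected number. Over tiles of 1000000 bases with at least 20 such sites, the ratio lay between 0.675 and 1.33 in the 30 tiles of chromosome 21 and was at lowest 0.433 in 1206 tiles of all autosomes, against 0.214 in the window.

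**Figure D3:**
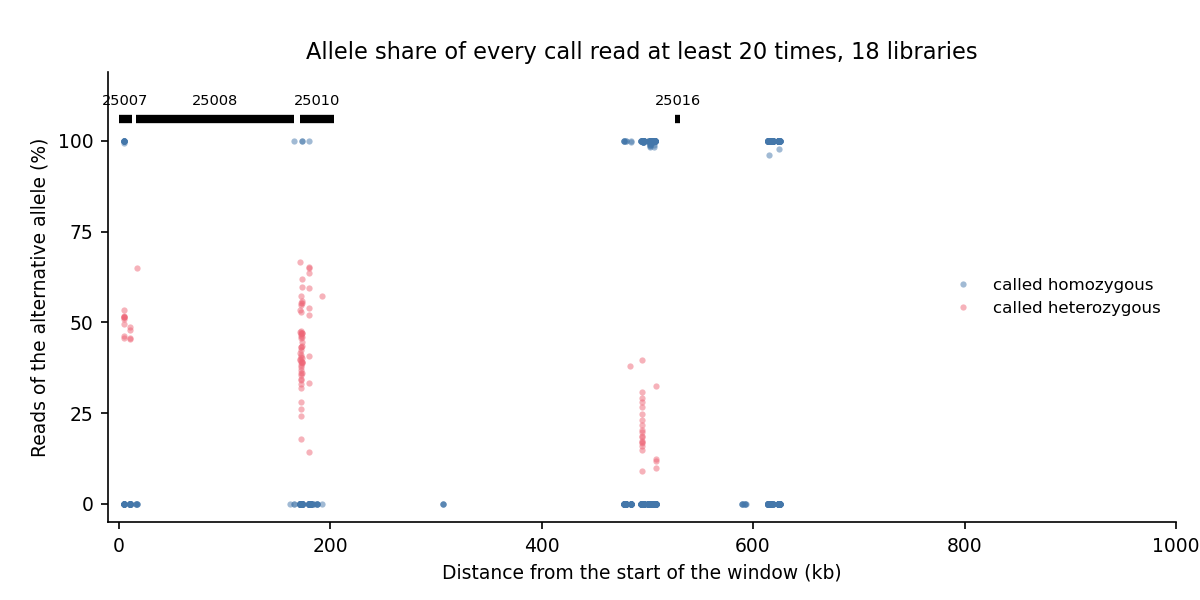
Share of reads with the alternative allele (%) at each call read at least 20 times in 18 libraries, against distance from the start of the window (kb); black bars span the SNP sites of the gene models. Heterozygous calls (red) lie around 50% in gene25007 (median 49.6%) and spread more widely and lower in gene25010 (median 43.2%). They are few and below 40% in the first intergenic stretch near 500 kb. None lies in the second stretch, where all calls are at or near 0% or 100%.

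In the 2 deep stretches nearly all calls were homozygous, and both homozygotes were common. Of 463 calls read at least 20 times in the first stretch, 274 were homozygous for the reference, 166 for the alternative allele and 23 heterozygous. Of 411 calls in the second, 232 were homozygous for the reference, 179 for the alternative allele and 0 heterozygous. If the calls were independent, this would allow a share of up to 0.73%. They are not, as linked sites and both tissues of the same animals are counted, so this limit is too narrow. At homozygous alternative calls, where the depth is that of the site, 42 of 47036 reads in the first stretch carried the reference allele, or 0.0893%, and 17 of these 42 came from the site 67402544. In the second stretch 2 of 6094 reads did, or 0.0328%. The same share was 0.0788% in the rest of chromosome 21.

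Among sites with no heterozygous animal, 16 tied for the largest number expected, 4.71 of 9 animals, and the 10 with the most reads are named here. The only 1 of these 10 in the first stretch was a C-to-T site at position 67395783. It was read 261 to 335 times in the 8 libraries of 4 animals called homozygous for T, and 1 of their reads carried C against 2421 with T. In the 5 other animals it was called homozygous for C at 93 to 276 reads. These animals fell in every age group, with 6-month animal 3, 18-month animal 1 and 30-month animals 1 and 3 showing T. The library pairs matched at this site, so each animal showed the same allele in both tissues.

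The other 9 named sites all lay in the second stretch, at positions 67516530 (A-to-G), 67524574 (T-to-G), 67519122 (G-to-A), 67515846 (C-to-T), 67525069 (T-to-C), 67523229 (G-to-A), 67524739 (A-to-G), 67515770 (C-to-G) and 67514750 (T-to-C). Each was expected to be heterozygous in 4.71 animals and was so in 0. The alternative allele was shown by 4 animals at 7 of these sites and by 5 animals at the 2 G-to-A sites, which are the 2 capital letters of the string shared by 5 animals. At the site 67516530, the 8 libraries of 6-month animal 2, 18-month animal 2 and 30-month animals 1 and 3 had 24 to 67 reads, and all 336 carried the alternative allele. At the site 67524574, 1 reference read stood against 432 alternative reads in the same animals. The 9 sites lie within the span of the strings printed for the second stretch and repeat the same split of animals, so they are 1 observation on the chromosome and not 9.

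Both tissues of an animal showed the same allele. Among genotypes of the window read at least 20 times in both tissues, 529 of 531 were identical, and in 0 did the tissues show opposite homozygotes. In the second stretch all 169 were identical, and in the first 223 of 225. For comparison, 14266 of 14341 genotypes (99.5%) were identical in the rest of chromosome 21. The 2 that differed were in the first stretch and had a heterozygous call in 1 tissue only. In no animal did the pituitary show 1 allele and the hypothalamus only the other.

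Most heterozygous calls in the 2 deep stretches were A-to-G changes. In the first stretch, all 23 heterozygous calls read at least 20 times were A-to-G changes, at 3 sites (18 calls at the site 67395046). At any depth all 44 were, at 7 sites. In the second stretch, 35 of 39 heterozygous calls at any depth were A-to-G. The shallow stretches differed: in chr21:67163439-67206364 only 1 of 14 heterozygous calls was A-to-G, and in chr21:67228951-67248908 only 1 of 5. Over all intergenic sites of the window, 83 of 105 were, against 17.9% of heterozygous calls in the rest of chromosome 21 and 11.8% in the gene models of the window. By site, 26 of 42 intergenic sites with a heterozygous call were A-to-G, against 2383 of 12944 in the rest. The strand of the transcripts was not taken into account. T-to-C is the same change on the other strand. It made up 3 of these 105 calls, 58 of 287 in the gene models and 7095 of 39118 in the rest. Among homozygous alternative calls, A-to-G made up 11.1% in the first stretch, 18.4% in the second and 20.3% in the rest. As background, adenosine deaminases acting on RNA change adenosine to inosine, which is read as G, and such edits look like A-to-G SNP calls in RNA. Whether these calls are edits was not tested, and no DNA genotypes were used here.

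One A-to-G site, at position 67395046 in the first stretch, was called heterozygous in all 18 libraries. It was read 184 to 419 times. In the pituitary, G made up 16.9%, 24.8% and 16.9% of reads at 6 months, 23.2%, 39.7% and 9.12% at 18 months, and 17.2%, 27.9% and 19.8% at 30 months. In the hypothalamus it made up 26.8%, 20.3% and 29.1% at 6 months, 18.5%, 15.9% and 18.8% at 18 months, and 14.8%, 30.7% and 21.7% at 30 months. Both extremes were pituitary libraries of 18 months, and the tissues overlapped. The ages overlapped in the pituitary, whereas in the hypothalamus the 6-month libraries all lay above the 18-month libraries, which was not tested. The mean was 21.7% ± 8.68 in the pituitary and 21.8% ± 5.76 in the hypothalamus (SD, n = 9 animals). The difference was -0.12 points ± 10.99, higher in the pituitary in 4 of 9 animals, with p = 0.965 in a two-sided exact sign-flip permutation test. Of the 26 sites of the first stretch with both alleles seen over at least 5 animals, 1 other had a heterozygous animal. This A-to-G site, 67407966, was heterozygous in 4 libraries of 3 animals, with 10% to 32.4% G. At lower depth, the A-to-G site 67383180 was heterozygous in 10 libraries of 8 animals, at 3 to 21 reads. Both were picked with their values in view.

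**Figure D4:**
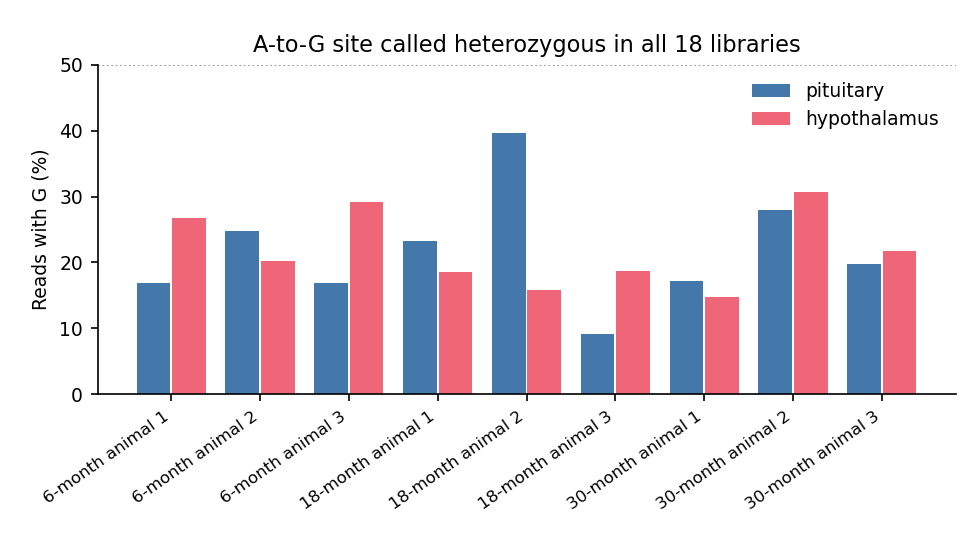
Share of reads with G (%) at the A-to-G site that was called heterozygous in all 18 libraries, in the pituitary (blue) and hypothalamus (red) of each of 9 animals; each bar is 1 library. All bars stay below the dotted line at 50%, from 9.12% to 39.7%, and neither tissue is higher throughout.

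Insertions and deletions gave a mixed picture at far fewer sites. The deposited table lists 50 in the window, with 48 heterozygous among 138 calls read at least 20 times (34.8%), against 43.8% in the rest of chromosome 21. At the site 67405435, 3 animals were called homozygous for the reference and 6 for the insertion, with no heterozygote. At the site 67514541 the split was 5 against 4, also with none. In contrast, the sites 67400038 and 67401896, each with more than 1 alternative listed, were heterozygous in all 18 and all 17 libraries read at least 20 times, so these account for 35 of the 48 heterozygous calls. Both list a loss of 1 base as the first alternative. These 4 sites were picked with their values in view.

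In contrast to the intergenic stretches, the gene models at the start of the window carried both alleles. In gene25010, of whose 116 sites 103 are listed as intronic, 5 in the 3′ UTR and 6 in coding sequence, 58 of 250 calls read at least 20 times were heterozygous. The 14 sites tested gave 30 heterozygous genotypes against 27.5 expected. At these 58 calls, which came from all 18 libraries, the less frequent allele made up 14.3% to 48.0% of reads, with a median of 40.4%. In gene25007, 13 of 68 calls were heterozygous, and the less frequent allele made up 45.4% to 49.6%, with a median of 48.3%. These 13 calls lay at 4 sites. The site 66905505 gave 7 of them, and the 3 other sites were heterozygous only in 6-month animal 2. With 4 sites read in both libraries of 5 or more animals, gene25007 fell below the 5 set for describing a model one by one. The median over heterozygous calls in the rest of chromosome 21 was 43.3%, not matched in depth. Weighted to the depth of the window's heterozygous calls, it averaged 45.1% over animals. All 105 genotypes of gene25010 and all 32 of gene25007 that were read in both tissues were identical. In gene25008, 11 calls were read at least 20 times, and in gene25016 none was, so neither could be described by allele.

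Over the whole window, the less frequent allele at heterozygous calls made up 34.7% to 45.3% of reads per animal, with a median of 37.5%. In the rest of chromosome 21 at the same depths it was 44.7% to 45.6%. The means were 38.7% ± 3.62 and 45.1% ± 0.291 (SD, n = 9 animals), and the difference of -6.43 points ± 3.71 was negative in 8 of 9 animals (two-sided exact sign-flip permutation test, p = 0.00781). The 6-month animal 2 was the exception, at 0.31 points. Each library had only 3 to 11 heterozygous calls in the window, 95 in all, of which 58 lay in gene25010. The A-to-G site heterozygous in all 18 libraries also lies in this value. The test thus rests on few sites, many of them shared by the animals. Without A-to-G changes, a setting chosen after the data were seen, the difference was -4.02 points and p = 0.0312 in the same exact test.

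The 4 gene models were expressed at different levels. Levels are given as the deposited FPKM (by its name, fragments scaled by gene length and by library size). By this measure gene25007 was highest with a median of 35.4 over 18 libraries (28.9 to 50.4), followed by gene25010 with 22.1 (12.4 to 34.8). gene25008 had a median of 1.88 (1.31 to 7.90) and gene25016 of 0.108 (0 to 2.55). The ranges of gene25007 and gene25010 overlapped, as did those of gene25008 and gene25016. In bulk tissue, fewer cells of a type and less RNA per cell cannot be told apart. The intergenic stretches have no gene model and so no count, although the site at 67395046 alone was read 184 to 419 times.

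gene25016 was nearly silent but for 1 library. It had 410 counts, or 13.9 CPM (counts scaled to the library total), in 18-month pituitary replicate 2, and 0 to 47 counts in the other 17 libraries, with 0 in 18-month pituitary replicate 3. The hypothalamus of the same animal had 26 counts. Depth summed over the called SNP sites of gene25016 also set this library apart, at 51 against 0 to 2 in each other. gene25012, which has no SNP site in the window and whose number falls between those of gene25010 and gene25016, had 1034 counts in this library and 0 to 15 elsewhere; it was picked with its values in view. Along chromosome 21 gene numbers rose with position in 403 of 404 steps. The same library had the highest G share at the site 67395046, at 39.7%, and the fewest reads there, at 184. No cause was tested.

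gene25010 and gene25008 were both highest in 18-month pituitary replicate 3. There gene25010 reached 259 CPM, against 53.3 to 146 elsewhere, and gene25008 reached 11.4 against 3.26 to 4.74. For gene25010 the FPKM of that library, 30.9, was within the range of the others. In the same library the depth summed over called SNP sites of gene25007 was 15, against 330 to 686 elsewhere. The count of gene25007 there, 4459, was above the median of 3541 over all libraries. This library also had the fewest gene models with counts, 18830 against 19946 to 21087.

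No gene model of the window passed the test for a change with age or between tissues. Of the 4 models, all passed the expression filter, and 0 were called in any of 9 comparisons with edgeR's quasi-likelihood test at a Benjamini-Hochberg adjusted p under 0.05. The background was near 0 as well: 0.00539% of all models tested were called in the pituitary between 18 and 6 months, 0.00539% between 30 and 6 months and 0.00539% for any difference among ages, 0% between 30 and 18 months, 0% in each hypothalamus comparison and 0% between tissues. At an unadjusted p under 0.05, 1 of the 4, gene25010, passed in the hypothalamus between 18 and 6 months, where 8.8% of all models did, between 30 and 6 months (3.51%) and for any difference among ages (4.47%). None of the 4 passed the unadjusted threshold in the pituitary, where 12.9% (18 against 6 months), 7.44% (30 against 18), 1.9% (30 against 6) and 7.6% (any difference) of all models did. None passed it in the hypothalamus between 30 and 18 months (2.07%) or between tissues (5.13%). Between tissues edgeR called 0 of 19707 models, and the unadjusted share of 5.13% is close to the threshold of 0.05 itself. That comparison thus separated no gene model between the 2 organs. The lack of calls cannot be read as equal expression of the 4 models. DESeq2 also called none of them, with an adjusted p for 3 of the 4 in the pituitary and for all 4 otherwise, but its background was higher. It called 1.84% of all models in the pituitary between 18 and 6 months, 0.626% between 30 and 18, 0.105% between 30 and 6 and 1.14% for any difference among ages. In the hypothalamus it called 0.486%, 0.0705%, 0.194% and 0.3% in the same order, and between tissues 0.45%.

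In the hypothalamus, gene25010 had 60.8, 101 and 68.0 CPM at 6 months, 105, 138 and 144 at 18 months, and 121, 103 and 130 at 30 months. In CPM the 6-month libraries lay below both later ages without overlap, at most 101 against at least 103. In FPKM the 6-month and 30-month libraries overlapped. The FPKM was 14.2, 21.8 and 18.3 at 6 months and 22.6, 27.4 and 15.7 at 30 months. The share of all gene models that separate by age in this way was not counted. The log2 fold change of 18 against 6 months was 0.73 (SE 0.23, edgeR adjusted p = 0.558) and that of 30 against 6 months was 0.59 (SE 0.23, edgeR adjusted p = 0.986). In the pituitary it had 139, 130 and 146 at 6 months, 92.9, 53.3 and 259 at 18 months, and 121, 55.3 and 128 at 30 months, with log2 fold changes of 0.13 (SE 0.60) and -0.47 (SE 0.60) against 6 months. The ages overlapped there at 18 months, and in CPM the 30-month libraries all lay below the 6-month libraries, with the same limit. In FPKM these 2 ages overlapped in the pituitary, at 32.8, 25.8 and 19.3 against 17.6, 14.4 and 23.9 at 30 months. Whether the age difference itself differed between tissues was not tested.

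Between tissues, the log2 difference of pituitary minus hypothalamus was -0.13 (SE 0.14) for gene25007, 0.31 (SE 0.25) for gene25008, 0.27 (SE 0.28) for gene25010 and 1.21 (SE 0.81) for gene25016, each with an edgeR adjusted p of 1. As edgeR called no gene model at all between tissues, these differences are descriptive only. The sign of the last 3 rests on 1 library each. Without 18-month pituitary replicate 3 the difference was -0.0024 for gene25008 and -0.0804 for gene25010, and without 18-month pituitary replicate 2 it was -0.92 for gene25016. For gene25007 the difference stayed between -0.185 and -0.06 in all 25 alternatives run.

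**Figure D5:**
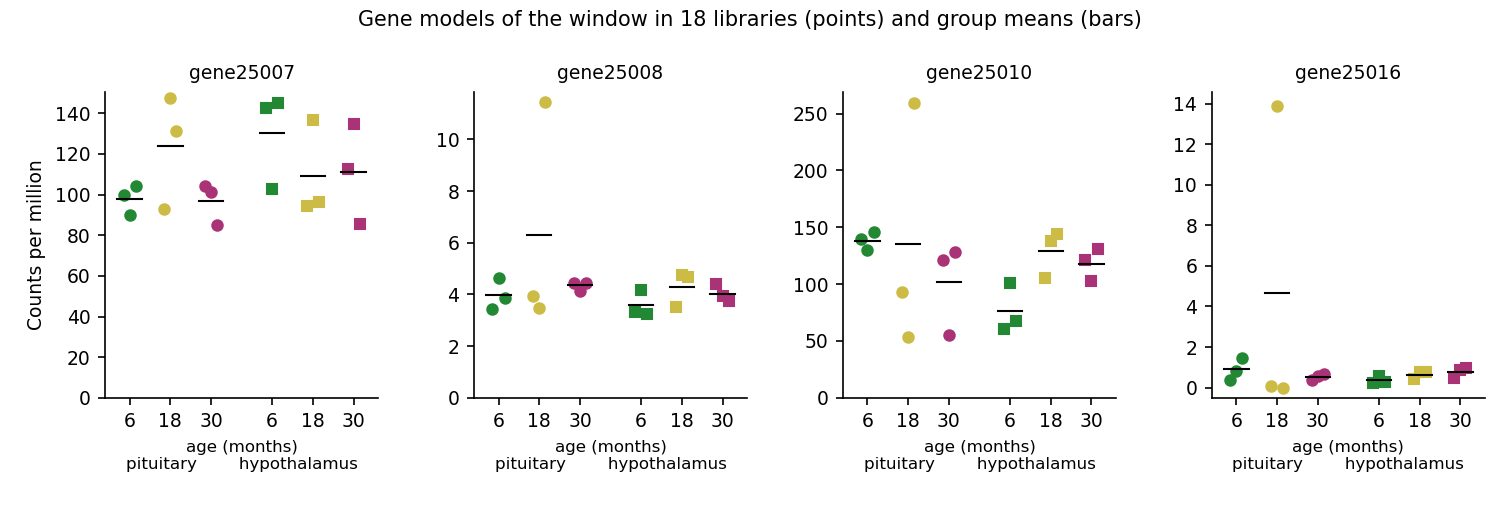
Counts scaled to the library total (CPM) of the 4 gene models in each of 18 libraries (circles, pituitary; squares, hypothalamus; 3 per age) with group means (bars); each panel has its own axis. Single 18-month pituitary libraries stand far above the rest in gene25008 (11.4), gene25010 (259) and gene25016 (13.9).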

How the data were processed

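The SNP table deposited by the authors gives, per the file headers, a genotype, a depth (count of reads) and allele read counts for each library; a second deposited table holds insertions and deletions. The deposited gene table holds raw counts for 27376 gene models, and another holds FPKM values computed by the authors. Of tools, HISAT2, StringTie, GATK and DESeq are listed in the submitters' processing notes; their versions and the annotation are not given in the sources used here, and chromosomes bear NCBI's accessions for the UMD assembly. No per-sample column lacked a sample.

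Genotypes read at least 20 times were used. The rest of chromosome 21 was weighted to the depth of the window in bins with edges at 20, 40, 80 and 160 reads. An animal's value was the mean of its libraries, and differences were tested over 9 animals with a two-sided exact sign-flip permutation test (512 sign patterns). Observed over expected used sites with both alleles in at least 5 animals; a p compares these animals only. Libraries were paired by genotypes outside chromosome 21, and the pairs bore the same replicate number. Limits at 0 use 3 counts and treat calls as independent.

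Counts were tested with edgeR 4.0.16 (TMM, its expression filter, Benjamini-Hochberg adjustment over all gene models; limma 3.58.1, R 4.3.3), with 0.05 as the threshold. The other settings included DESeq2 1.42.0 and limma on log2(FPKM + 1) and log2(FPKM + 0.1). The scripts were tested on simulated data. Named were each gene model with a SNP site in the window (those with at least 5 sites read in both libraries of 5 or more animals one by one), the 10 sites with the largest expected number of heterozygous animals and none observed (ties ordered by summed depth), and the site heterozygous in the most animals. Lists by gene symbol, cell type markers among them, could not be run, so the tissues were not checked by markers. The window and these lists were chosen with earlier results of these data known.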

Additional observations from a re-analysis of the deposited data

How the results depend on the processing

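The lower share of heterozygous calls in the window kept its sign and its call (exact p at most 0.00781) in all 19 alternatives. The difference ranged from -17.5 points with exon sites only to -44.9 points with non-reference calls only. It was -27.9 to -25.8 points when 1 animal was left out. This share does not take allele frequency into account. Observed over expected kept its call in 16 of 17 alternatives, and it was -0.949 to -0.883 when 1 animal was left out. With exon sites only, which leaves out the intergenic stretches, it was -0.271 (exact p = 0.082) and negative in 8 of 9 animals. There the mean ratio was 1.09 in the window and 1.36 in the rest, so the window had no deficit against the expected number. The minor allele difference ranged from -7.65 to -4.02 points over 18 alternatives (exact p at most 0.0391), and from -7.27 to -5.86 when 1 animal was left out. Leaving out A-to-G changes and using non-reference calls only were chosen after the data were seen.

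No gene model of the window was called in any of 145 alternatives over 9 comparisons (lowest adjusted p 0.168). Over all models, edgeR called 0 or 1 in each comparison, DESeq2 13 to 334, and the other 136 alternatives at most 40 (pituitary 18 against 6 months, without 18-month pituitary replicate 1), and otherwise at most 7. Pairing the tissues of an animal as a replicate block also gave 0 calls between tissues. The tissue difference of gene25010 turned to -0.0744 with limma on log2(FPKM + 1) and to -0.0782 with log2(FPKM + 0.1). When 1 library was left out, that of gene25010 ranged from -0.0804 (without 18-month pituitary replicate 3) to 0.42, that of gene25008 from -0.0024 (without the same library) to 0.42, and that of gene25016 from -0.92 (without 18-month pituitary replicate 2) to 1.41. The cause was not tested. Depth limits the rest: gene25008 and gene25016 had 11 and 0 calls read at least 20 times, and a low share of alternative reads is not visible at reference calls.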
